A study of Mus musculus with 62 samples.

Results

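Primary mouse neurons that had received Cre recombinase and extra Impact (KO + Impact, n = 4) were compared across all genes with neurons that had received neither (WT, n = 4). These 8 libraries, of 62 in the series, were chosen by their sample titles. Per the labels, cells of the ventral diencephalon and mesencephalon were taken from BL6 embryos at e13.5, plated on laminin, infected with a lentivirus on day 7 in vitro and harvested for RNA on day 14. The virus of the KO + Impact cultures carried eGFP, Cre and Impact, that of the Nova1 KO cultures (KO, n = 4) carried eGFP and Cre, and that of the WT cultures carried eGFP alone. All 3 groups thus shared the vector backbone and eGFP. KO + Impact and WT cultures differed in Cre, Nova1 and Impact at the same time, and the effects of these cannot be told apart in that comparison. Values of the KO cultures are given beside most of those of KO + Impact. The labels name neither the allele on which Cre acted nor the share of cells infected. Ribosome-bound RNA from whole brain at P0 (TRAP, translating ribosome affinity purification) of mice with Nova1 deleted in inhibitory neurons (cKO, n = 6) and of mice labelled cHet (n = 6) supplied values from other samples.

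NOVA1 and NOVA2 are neuronal RNA-binding proteins that regulate alternative splicing. IMPACT is abundant in neurons, binds GCN1 and hinders the activation of GCN2 (gene Eif2ak4), a kinase that senses uncharged tRNA when amino acids run short. GCN2 phosphorylates the translation factor eIF2. This lowers protein synthesis in general but raises translation of the transcription factor ATF4, which turns on genes for amino acid uptake, amino acid synthesis and tRNA charging.

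The 12 primary neuron libraries held 20.95 to 29.5 megatags each, of which 5.30 to 8.40% came from Rn45s, a ribosomal RNA gene. Levels below are CPM, counts scaled to a common library size. Neuron markers summed to 5325 to 5610 CPM in KO + Impact and 4880 to 5446 CPM in WT. Astrocyte markers (1581 to 1742 CPM in KO + Impact, 1688 to 1803 CPM in WT) and oligodendrocyte lineage markers (482 to 606 CPM in KO + Impact, 536 to 684 CPM in WT) were also present. Of 14 microglia markers, 13 averaged under 1 CPM, and the 14 together summed to 1.93 to 3.12 CPM in KO + Impact and 1.51 to 3.67 CPM in WT. In such bulk RNA, fewer cells of a type and less RNA per cell cannot be told apart.

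Nova1 (Entrez 664883, GRCm38.p6 chr12:46697895-46819480, protein coding) was read first as a check of the labels. It stood at 22.1, 24.3, 24.6 and 27.2 CPM in the 4 KO + Impact libraries, at 14.0, 18.8, 16.8 and 18.4 CPM in the 4 KO libraries and at 195, 202, 213 and 217 CPM in the 4 WT libraries. Every KO + Impact library lay far below every WT library. The log2 fold change of KO + Impact over WT was -3.08 (SE 0.05, adjusted p = 1.06e-22, edgeR's quasi-likelihood test with Benjamini-Hochberg adjustment over all genes tested, as in every adjusted p here). Nova1 was also higher in KO + Impact than in KO, by 0.53 log2 units (SE 0.06, adjusted p = 6.26e-05). The deposited data give a single tag number for each gene, and the labels do not say which part of Nova1 Cre removes.

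Impact had 2074, 1796, 1873 and 1709 CPM in KO + Impact, 212, 193, 153 and 198 CPM in KO and 351, 333, 289 and 301 CPM in WT. The KO + Impact libraries were all above the WT libraries, and the KO libraries were all below them. KO + Impact exceeded WT 5.86-fold (log2 fold change 2.55, SE 0.05, adjusted p = 2.04e-21) and exceeded KO 9.90-fold (3.31, SE 0.05, adjusted p = 2.88e-23), while KO was below WT (-0.76, SE 0.05, adjusted p = 4.52e-10). Tags of the viral and of the chromosomal Impact gene were counted together.

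Nova2, the paralog of Nova1, had 217, 238, 220 and 232 CPM in KO + Impact, 227, 242, 236 and 235 CPM in KO and 159, 175, 162 and 168 CPM in WT. Both Cre groups were above WT in every library. It rose in KO + Impact over WT by 0.45 log2 units (SE 0.03, adjusted p = 7.90e-10) and in KO over WT by 0.50 (SE 0.03, adjusted p = 1.67e-10). KO + Impact differed from KO by -0.05 (95% interval -0.11 to 0.01, adjusted p = 0.8004). Per transcript length, Nova2 averaged 26.99 RPKM in KO + Impact and 20.002 RPKM in WT, and Nova1 averaged 3.09 RPKM in KO + Impact and 26.4 RPKM in WT, as the authors' deposited RPKM values give them.

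Gt(ROSA)26Sor, the noncoding transcript of the Rosa26 locus (chr6:113067428-113077244), which is widely used for transgenes in mice, had the next largest rise after Impact among genes of at least 5 CPM. It held 15.5, 15.5, 13.1 and 14.8 CPM in KO + Impact, 13.3, 16.1, 13.3 and 16.5 CPM in KO and 2.08, 3.25, 2.62 and 2.46 CPM in WT. No library of either Cre group overlapped WT (KO + Impact over WT 2.50, SE 0.11, adjusted p = 4.19e-13). The difference between KO + Impact and KO was 0.00 within an interval of -0.18 to 0.18 log2 units.

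**Figure D1:**
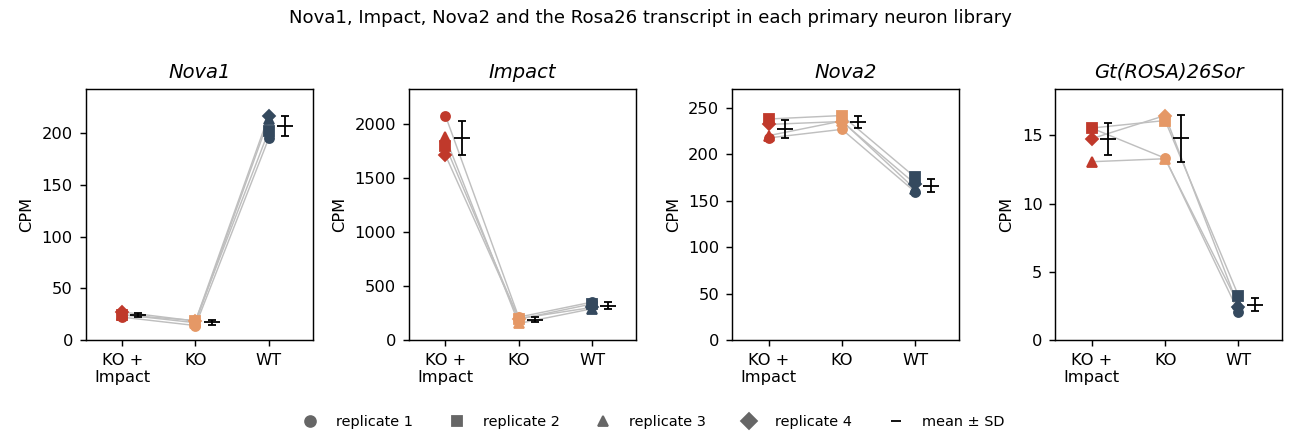
Level (CPM, linear axis from 0) of Nova1, Impact, Nova2 and Gt(ROSA)26Sor in each KO + Impact, KO and WT library. Symbols mark the replicate number, grey lines join libraries of the same number, and black bars are the mean ± SD (n = 4). Nova1 lies at 22.1 to 27.2 CPM in KO + Impact and 195 to 217 CPM in WT, and Impact at 1709 to 2074 CPM in KO + Impact and 289 to 351 CPM in WT.

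Of 14829 genes tested, 503 (3.39%) differed between KO + Impact and WT at an adjusted p under 0.05. 211 (1.42%) rose and 292 (1.97%) fell, and the median log2 fold change over all genes tested was 0.00. Most shifts were small: the median size among the 503 was 0.23 log2 units, and 20 were at least 2-fold, of which 6 rose and 14 fell. 487 of the 503 had the same sign in all 4 pairs of libraries with the same replicate number. The calls rest on that pairing. Without the replicate term 56 genes were called, all among the 503. 244 genes were called when replicate 3 of KO + Impact was left out, 326 without its replicate 4 and 321 without replicate 1 of WT. 184 of the 503 (73 rose, 111 fell) were called whichever of the 8 libraries was left out, and the sign of all 503 was kept. Genes described below as risen or fallen in KO + Impact against WT belong to those 184 unless the libraries that end their call are named.

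**Figure D2:**
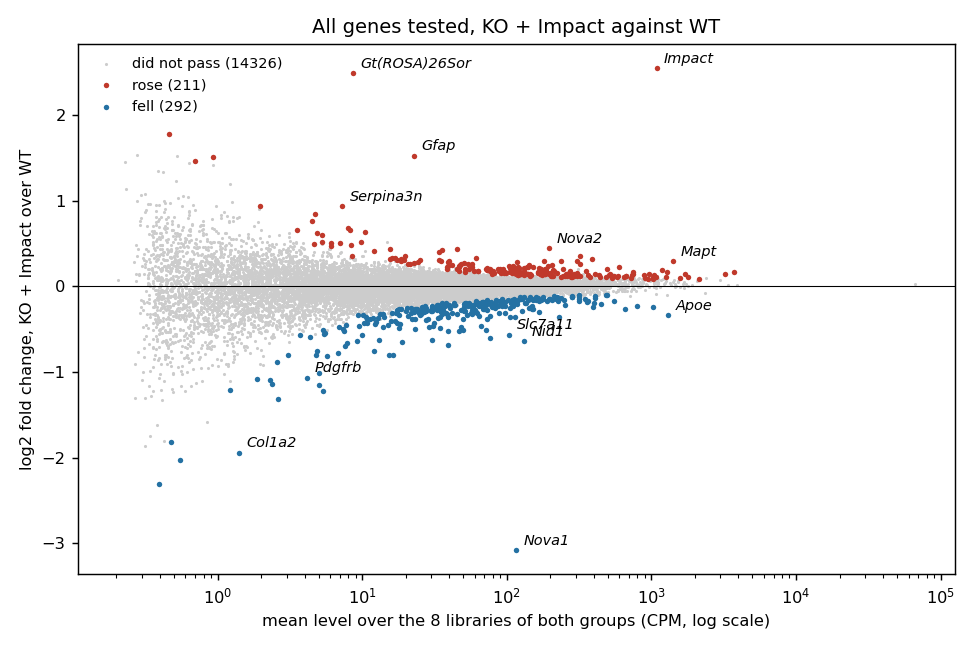
Log2 fold change of KO + Impact over WT against the mean level over the 8 libraries of both groups (CPM, log scale), for the 14829 genes tested. Red points are the 211 genes that rose, blue points the 292 that fell and grey points the genes that did not pass. Nova1 (-3.08) and Impact (2.55) lie farthest out among genes above 5 CPM.

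The KO libraries were set beside both groups. KO + Impact against KO, in which the Impact part of the virus is the labelled difference, gave 27 calls (0.182%), 12 higher (0.0809%) and 15 lower (0.101%) in KO + Impact. KO against WT, which shares the WT libraries with the main comparison, gave 942 (6.35%), 452 higher (3.05%) and 490 lower (3.30%). Of the 503 genes that differed between KO + Impact and WT, 16 were also called between KO + Impact and KO and 487 were not. At an unadjusted p under 0.05, 106 of the 503 differed between KO + Impact and KO. The absence of a call thus does not show that a gene was alike in both Cre groups. Both comparisons share the KO + Impact libraries. Among the 503 the median SE of the difference between KO + Impact and KO was 0.05 log2 units.

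A list of ATF4 targets, which also holds Atf4 itself, had 35 tested members. Of the 35, 12 fell and 0 rose, beside 1.97% and 1.42% of all genes tested. 33 of the 35 estimates were below 0 (median -0.17 log2 units, beside 0.00 over all genes). At an unadjusted p under 0.05, 21 fell and 1 rose, and DESeq2 called 11 fallen and 1 risen. In KO against WT, 3 of the 35 fell (3.30% of all genes) and 2 rose (3.05%), with a median of -0.04. Of the 3, Slc7a11 and Phgdh were called whichever of the 12 libraries was left out, Shmt2 lost its call in 9 of 12 such fits (up to 0.231), and Atf4 and Sqstm1, which rose, lost theirs without any KO library or replicate 1, 2 or 3 of WT (up to 0.173). In KO + Impact against KO, 5 were lower (0.101% of all genes): Asns, Slc7a1, Slc7a3, Slc7a5 and Atf4 itself. The list median there was -0.12, and the count of 5 was between 3 and 6 without single libraries and 0 without the replicate term. The count of 12 depended on single libraries: it was 5 without replicate 3 of KO + Impact, 7 without its replicate 4 and 8 without replicate 2 of WT, and it was 1 (Slc7a11) without the replicate term. 5 of the 12 (Slc7a11, Slc7a5, Slc3a2, Psat1 and Phgdh) were called whichever library was left out.

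Slc7a11, the cystine and glutamate exchanger of the cell surface, moved most among the 12. It held 78.6, 71.7, 92.3 and 93.9 CPM in KO + Impact, 75.8, 71.1, 89.8 and 92.9 CPM in KO and 114, 126, 132 and 124 CPM in WT. KO + Impact and WT did not overlap (-0.57, SE 0.05, adjusted p = 1.87e-07), and KO was also below WT (-0.60, SE 0.05, adjusted p = 7.23e-08). KO + Impact and KO differed by 0.03 (95% interval -0.07 to 0.13). Phgdh, the first enzyme of serine synthesis, averaged 78.2 ± 4.30 CPM in KO + Impact, 78.1 ± 12.6 CPM in KO and 97.4 ± 9.70 CPM in WT (KO + Impact over WT -0.31, SE 0.05, adjusted p = 0.000295; KO over WT -0.32, adjusted p = 0.000149).

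Slc7a5, the large neutral amino acid transporter, held 131, 168, 145 and 152 CPM in KO + Impact, 164, 173, 181 and 180 CPM in KO and 161, 209, 173 and 189 CPM in WT. The ranges of KO + Impact and WT overlapped, and each KO + Impact library was below the WT library of its own number. It fell by 0.29 log2 units against WT (SE 0.04, adjusted p = 0.000137), while KO over WT was -0.06 (adjusted p = 0.460). KO + Impact over KO was -0.23 (SE 0.04, adjusted p = 0.0148), a call that ended without replicate 1, 3 or 4 of KO + Impact or of KO (adjusted p 0.0743 to 0.222). Slc3a2, the partner chain of both transporters, averaged 134 ± 10.25 CPM in KO + Impact, 147 ± 13.1 CPM in KO and 158 ± 10.8 CPM in WT (KO + Impact over WT -0.24, SE 0.04, adjusted p = 0.000704). Psat1, the next enzyme of serine synthesis after Phgdh, averaged 55.6 ± 5.74 CPM in KO + Impact, 64.2 ± 6.90 CPM in KO and 69.0 ± 7.20 CPM in WT (-0.31, SE 0.05, adjusted p = 0.000294). Neither differed between KO + Impact and KO at the threshold (adjusted p = 0.357 for Slc3a2 and 0.107 for Psat1).

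The cationic amino acid transporters Slc7a1 and Slc7a3 and the asparagine synthetase gene Asns differed between the 2 Cre groups. Slc7a3 held 52.1, 53.6, 49.8 and 56.6 CPM in KO + Impact, 71.1, 60.1, 69.5 and 75.9 CPM in KO and 57.5, 65.9, 63.5 and 70.4 CPM in WT. Every KO + Impact library lay below every library of the other groups. It was lower in KO + Impact than in KO by a log2 fold change of -0.38 (SE 0.06, adjusted p = 0.00109), and lower than in WT by -0.28 (SE 0.06, adjusted p = 0.00456), the call against WT ending without replicate 3 of KO + Impact (0.0502).

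Slc7a1 held 77.1, 88.9, 83.4 and 83.5 CPM in KO + Impact, 92.3, 102, 104 and 103 CPM in KO and 85.1, 101, 93.7 and 96.4 CPM in WT. KO + Impact was below KO without overlap (-0.27, SE 0.04, adjusted p = 0.000998). Against WT it fell by 0.17 (SE 0.04, adjusted p = 0.0101), with adjusted p of 0.0640 and 0.0576 without replicate 3 or 4 of KO + Impact. Asns held 123, 133, 139 and 134 CPM in KO + Impact, 142, 151, 171 and 165 CPM in KO and 132, 153, 149 and 155 CPM in WT. KO + Impact was again below KO without overlap (-0.25, SE 0.04, adjusted p = 0.00109). Against WT Asns fell by 0.15 (SE 0.04, adjusted p = 0.0158), a call that ended without replicate 3 or 4 of KO + Impact or replicate 2 or 4 of WT (0.0607 to 0.0957). The calls of these 3 genes between KO + Impact and KO were kept whichever of the 12 libraries was left out, but ended without the replicate term (adjusted p = 0.397 for Slc7a3, 0.498 for Slc7a1 and 0.9998 for Asns). KO over WT was 0.10 for Slc7a3 and Slc7a1 and 0.09 for Asns, and none of the 3 passed (adjusted p 0.132 to 0.320).

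**Figure D3:**
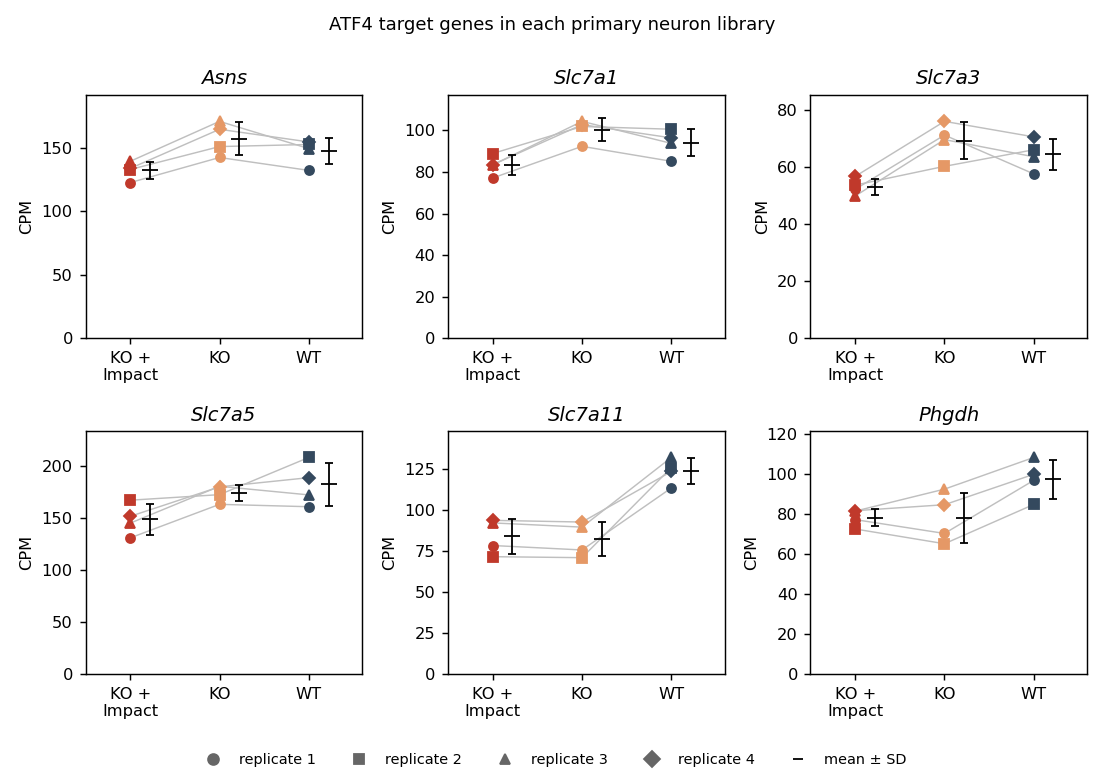
Level (CPM, linear axis from 0) of 6 ATF4 target genes in each KO + Impact, KO and WT library, with grey lines joining libraries of the same replicate number and black bars for the mean ± SD (n = 4). The means of Asns, Slc7a1 and Slc7a3 are lowest in KO + Impact and highest in KO, and Slc7a11 lies at 71.7 to 93.9 CPM in KO + Impact and 114 to 132 CPM in WT.

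Atf4 itself averaged 104 ± 7.37 CPM in KO + Impact, 123 ± 14.4 CPM in KO and 112 ± 14.8 CPM in WT. Its RNA did not pass against WT (-0.09, SE 0.04, adjusted p = 0.247) and was lower in KO + Impact than in KO (-0.23, SE 0.04, adjusted p = 0.00795), although not without replicate 3 or 4 of KO + Impact or of KO (0.0588 to 0.117). The other 4 fallen targets were Atf5 (-0.38), Aldh1l2 (-0.32), Pck2 (-0.29) and Mthfd2 (-0.22), a transcription factor and 3 mitochondrial enzymes. Their calls ended without replicate 3 of KO + Impact (adjusted p 0.0637 for Atf5, 0.104 for Aldh1l2, 0.0544 for Pck2 and 0.207 for Mthfd2). Atf5 also lost its call without replicate 4 of KO + Impact or 2 of WT, Aldh1l2 without replicate 2 of either group, Pck2 without replicate 1 or 4 of KO + Impact or 1, 3 or 4 of WT, and Mthfd2 without replicate 1 or 4 of KO + Impact or 1, 2 or 4 of WT. Targets tied to stress and cell death did not pass: Ddit3 was at -0.16 (SE 0.11, adjusted p = 0.525), Trib3 at -0.38 (SE 0.16, 0.244) and Chac1 at -0.32 (SE 0.10, 0.0765). The estimates of Trib3 and Chac1 were near those of Atf5 and Aldh1l2, which passed with smaller SEs (0.08 and 0.07).

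**Figure D4:**
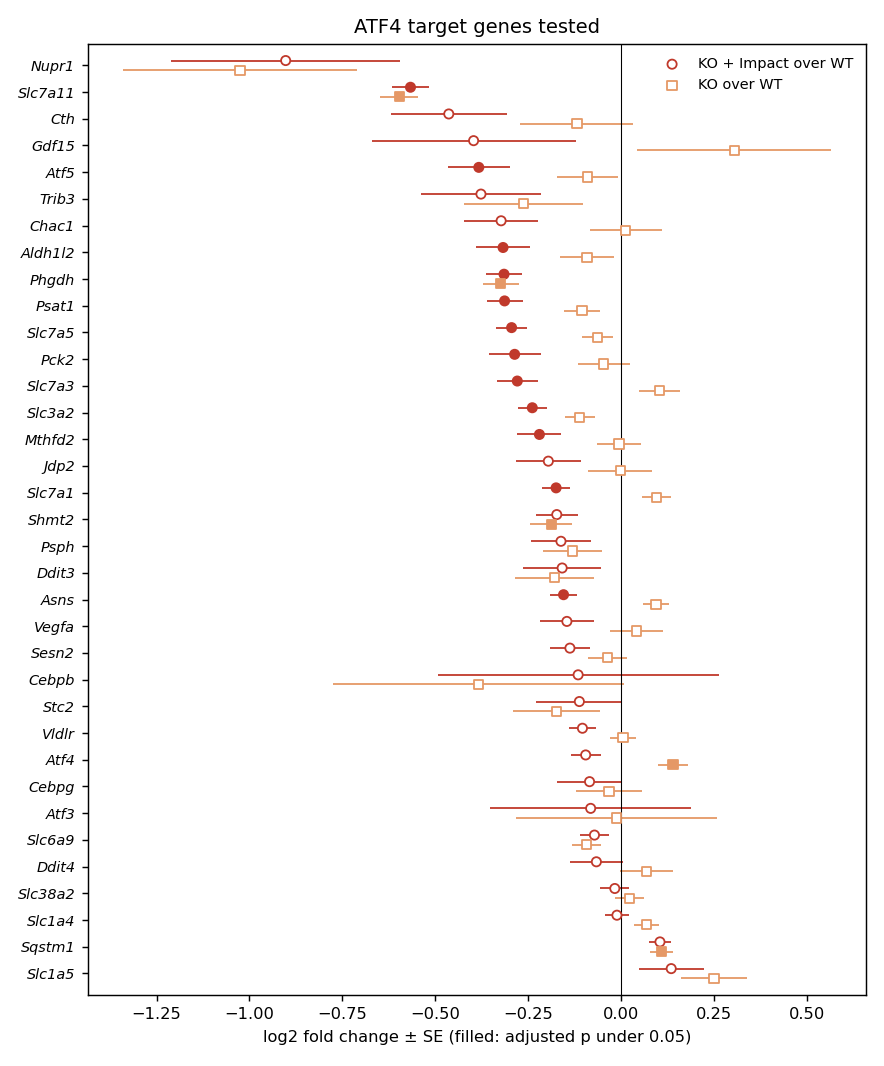
Log2 fold change ± SE of the 35 tested members of the ATF4 target list, Atf4 itself included, for KO + Impact over WT (circles) and KO over WT (squares). Both are from the fit over 12 libraries and share the WT libraries. Filled symbols passed at an adjusted p under 0.05. 33 of the 35 circles lie below 0, and 12 of them are filled.

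Of 20 tested tRNA synthetases, which attach amino acids to tRNA, 3 fell and 0 rose (4 and 1 at an unadjusted p under 0.05; 3 and 0 with DESeq2), beside 1.97% of all genes that fell. The list median was -0.03 log2 units, with 14 of the 20 estimates below 0, and 0 were called as fallen without the replicate term. Aars, for alanine, averaged 373 ± 10.4 CPM in KO + Impact, 395 ± 17.5 CPM in KO and 426 ± 18.6 CPM in WT (-0.19, SE 0.03, adjusted p = 0.000160). Aars also fell in KO against WT, although not without replicate 3 of WT or 1, 2 or 4 of KO (0.0546 to 0.124). Cars, for cysteine, averaged 102 ± 3.77 CPM in KO + Impact, 119 ± 7.17 CPM in KO and 119 ± 9.85 CPM in WT (-0.23, SE 0.04, adjusted p = 0.00278). Cars was also lower than in KO (-0.22, adjusted p = 0.0300), but not without replicate 1, 2 or 3 of KO + Impact or 1, 3 or 4 of KO (0.0693 to 0.284). Eprs, for glutamate and proline, was at -0.12 (adjusted p = 0.0293) and lost its call without any library of KO + Impact or replicate 1, 2 or 4 of WT (0.0560 to 0.143).

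Of 21 genes of the kinases, GCN2 activators and phosphatases around eIF2, Impact alone was called, beside 3.39% of all genes tested. Eif2ak4, the GCN2 gene, averaged 46.4 ± 1.42 CPM in KO + Impact, 45.7 ± 1.47 CPM in KO and 50.1 ± 4.20 CPM in WT (-0.11, SE 0.05, adjusted p = 0.302). Gcn1l1, the gene of its activator GCN1, averaged 249.2 ± 7.64 CPM in KO + Impact, 245 ± 12.2 CPM in KO and 246 ± 14.0 CPM in WT (0.02, SE 0.03, adjusted p = 0.830). In the neighbouring stress responses, edgeR called 0 of 22 genes of the endoplasmic reticulum unfolded protein response (2 rose and 5 fell at an unadjusted p under 0.05) and 0 of 19 chaperone genes (2 rose and 0 fell unadjusted). DESeq2 also called 0 in both. Over all 14829 genes tested, edgeR called 3.39%, and 2269 had an unadjusted p under 0.05. At that share, lists this short can hold 0 calls without differing from other genes.

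ATF4 binds DNA at a C/EBP-ATF composite element, for which TGATGNAA was searched on both strands in RefSeq promoters of GRCm38.p6, from 250 bases before to 50 after the start that the RefSeq promoter table gives for each gene. Of 11704 tested genes with an entry, 321 (2.74%) held a match. Of the 30 ATF4 targets with an entry, 10 (33.3%) did, among them 3 of the 9 that fell and 7 of the 21 that did not, so that the share was 33.3% in both. Of 13 tRNA synthetases with an entry, 5 held it. The bases before the start are shown for the genes that fell and held a match, because the match has the letters of that element. They run 5′ to 3′ on the gene's strand, with matches on either strand in capitals. The stretches lie at chr3:50443614-50443863 for Slc7a11 (minus strand), chr6:7693210-7693459 for Asns (minus), chr14:55540016-55540265 for Pck2 (plus) and chr8:111033592-111033841 for Aars (plus). For Slc7a11, Pck2 and Aars the table's start lies inside the gene's whole RefSeq span, so the window is not upstream of all of the gene. A match is a description of letters and was not tested as a binding site.
Slc7a11: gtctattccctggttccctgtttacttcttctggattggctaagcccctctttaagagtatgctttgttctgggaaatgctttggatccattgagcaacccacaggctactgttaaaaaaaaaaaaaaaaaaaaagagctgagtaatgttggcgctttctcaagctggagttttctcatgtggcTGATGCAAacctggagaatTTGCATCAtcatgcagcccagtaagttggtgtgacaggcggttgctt
Asns: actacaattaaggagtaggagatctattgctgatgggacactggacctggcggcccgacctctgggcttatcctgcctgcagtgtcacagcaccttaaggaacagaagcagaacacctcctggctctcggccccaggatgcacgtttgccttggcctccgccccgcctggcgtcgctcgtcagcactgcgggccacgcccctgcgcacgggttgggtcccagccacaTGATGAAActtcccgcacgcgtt
Pck2: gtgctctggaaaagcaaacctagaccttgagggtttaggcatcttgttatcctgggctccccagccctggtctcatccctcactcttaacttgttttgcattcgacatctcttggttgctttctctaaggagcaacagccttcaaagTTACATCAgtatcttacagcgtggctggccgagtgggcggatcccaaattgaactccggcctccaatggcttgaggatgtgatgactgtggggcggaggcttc
Aars: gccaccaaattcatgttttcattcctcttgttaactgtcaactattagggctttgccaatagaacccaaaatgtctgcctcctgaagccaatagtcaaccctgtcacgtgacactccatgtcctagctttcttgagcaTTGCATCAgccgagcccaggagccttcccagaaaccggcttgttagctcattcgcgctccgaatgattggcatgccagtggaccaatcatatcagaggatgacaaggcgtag
Slc7a11 holds matches in opposite orientations, beginning 66 and 47 bases before the start. Asns holds a match 23 bases before it, Pck2 103 before it and Aars 112 before it, and Aars holds a further one 9 bases after the start, outside the stretch shown. Genes with a match thus included Slc7a11, which was low in both Cre groups, and Asns, which was lower in KO + Impact than in KO.

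Outside amino acid genes, 6 further genes differed between KO + Impact and KO whichever of the 12 libraries was left out: Impact and Nova1 (above), Gfap, Ednrb, Nnat and Rpl39. Without the replicate term Impact alone was called. Ednrb, an endothelin receptor that astrocytes express, had 228, 207, 231 and 228 CPM in KO + Impact, 189, 164, 200 and 191 CPM in KO and 207, 169, 217 and 197 CPM in WT. It was above KO in every library (0.27, SE 0.03, adjusted p = 0.000255) and rose against WT by 0.18 (SE 0.03, adjusted p = 0.00234) with overlapping ranges. Nnat, an imprinted gene of neuronal membranes, averaged 540 ± 38.9 CPM in KO + Impact, 643 ± 79.7 CPM in KO and 491 ± 68.6 CPM in WT. It was lower than in KO (-0.25, SE 0.03, adjusted p = 0.000946), and KO exceeded WT (0.39, SE 0.03, adjusted p = 1.07e-07). Rpl39, of the large ribosomal subunit, averaged 72.6 ± 3.68 CPM in KO + Impact, 87.0 ± 2.10 CPM in KO and 82.2 ± 5.60 CPM in WT (KO + Impact over KO -0.26, SE 0.04, adjusted p = 0.00225). It has near-identical copies elsewhere in the genome, which makes its counts uncertain.

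Gfap, the intermediate filament of astrocytes (chr11:102887336-102897200), held 49.5, 35.5, 28.0 and 21.9 CPM in KO + Impact, 29.6, 21.7, 22.6 and 14.6 CPM in KO and 18.7, 11.2, 9.64 and 7.52 CPM in WT. In each replicate number KO + Impact was highest and WT lowest. Gfap rose 2.88-fold in KO + Impact over WT (log2 fold change 1.53, SE 0.08, adjusted p = 9.48e-12) and 1.5-fold over KO (0.58, SE 0.08, adjusted p = 0.000383), and KO exceeded WT (0.94, SE 0.08, adjusted p = 1.07e-07).

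Serpina3n, a protease inhibitor gene that reactive astrocytes express, held 10.5, 10.2, 9.71 and 7.83 CPM in KO + Impact, 7.06, 6.47, 5.37 and 5.41 CPM in KO and 4.85, 5.78, 4.23 and 5.25 CPM in WT. KO + Impact lay above all other libraries (over WT 0.93, SE 0.12, adjusted p = 1.90e-05). KO over WT was 0.27 (adjusted p = 0.210), and KO + Impact over KO was 0.66 (SE 0.11, adjusted p = 0.00795), except without replicate 3 of KO + Impact or replicate 2, 3 or 4 of KO (0.0504 to 0.105). Vim, an intermediate filament of glia and mesenchymal cells, averaged 335 ± 24.5 CPM in KO + Impact, 310 ± 13.1 CPM in KO and 273 ± 12.8 CPM in WT (0.29, SE 0.04, adjusted p = 2.24e-05). Nes, the filament of neural progenitors, averaged 52.6 ± 7.39 CPM in KO + Impact, 48.6 ± 5.71 CPM in KO and 44.0 ± 7.82 CPM in WT (0.26, SE 0.05, adjusted p = 0.00538).

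Of 12 astrocyte markers, 1 (Gfap) rose and 2 (Gja1 and Slc4a4) fell in KO + Impact, beside 1.42% and 1.97% of all genes. In KO against WT 7 of the 12 fell (3.30% of all genes), but 3 without replicate 1 or 3 of KO, 4 without replicate 4 of KO or 1 or 3 of WT, and 1 without the replicate term. Gja1, the gap junction protein connexin 43, held 60.1, 59.2, 60.7 and 72.8 CPM in KO + Impact, 62.7, 57.0, 55.0 and 65.2 CPM in KO and 79.9, 75.3, 82.1 and 92.1 CPM in WT. All libraries of both Cre groups were below all WT libraries (KO + Impact over WT -0.38, SE 0.05, adjusted p = 1.00e-05). Slc4a4, a sodium bicarbonate cotransporter, was at -0.14 (SE 0.03, adjusted p = 0.00321). Aqp4, the water channel of astrocyte endfeet, averaged 111 ± 8.98 CPM in KO + Impact, 99.9 ± 7.71 CPM in KO and 113 ± 11.5 CPM in WT and did not pass (adjusted p = 0.927), nor did the glutamate transporter genes Slc1a2 (-0.06, adjusted p = 0.280) and Slc1a3 (0.01, adjusted p = 0.920).

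**Figure D5:**
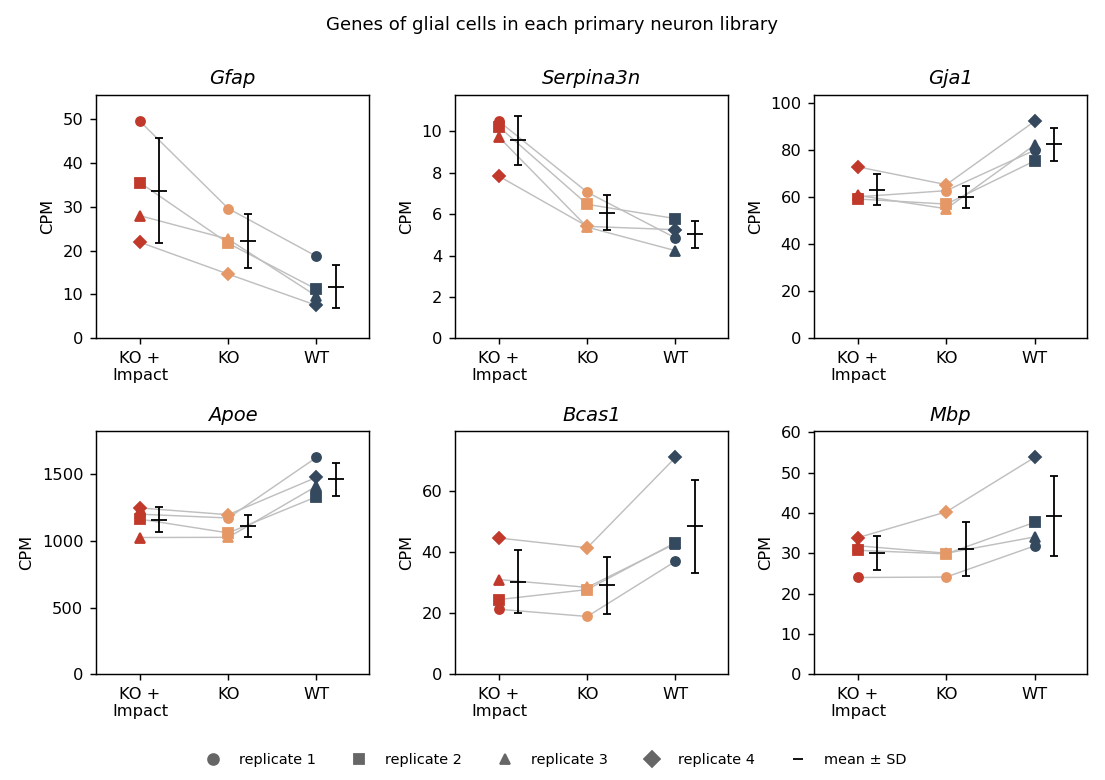
Level (CPM, linear axis from 0) of 6 glial genes in each KO + Impact, KO and WT library, with grey lines joining libraries of the same replicate number and black bars for the mean ± SD (n = 4). The means of Gfap and Serpina3n are highest in KO + Impact, and those of Gja1, Apoe, Bcas1 and Mbp are highest in WT.

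Of 15 tested oligodendrocyte lineage markers (1.97% of all genes fell), 9 fell and 0 rose in KO + Impact (median -0.26 log2 units; 11 fell and 2 rose at an unadjusted p under 0.05, and DESeq2 called 6 fallen and 0 risen), and 8 fell and 0 rose in KO against WT (3.30% of all genes fell; between 5 and 9 without single libraries and 0 without the replicate term). Mbp, myelin basic protein, averaged 30.2 ± 4.28 CPM in KO + Impact, 31.1 ± 6.72 CPM in KO and 39.4 ± 9.92 CPM in WT (-0.36, SE 0.07, adjusted p = 0.00278). Mag, the myelin-associated glycoprotein, was sparse, at 1.52 ± 0.696 CPM in KO + Impact, 1.55 ± 0.812 CPM in KO and 3.26 ± 0.962 CPM in WT (-1.14, SE 0.22, adjusted p = 0.00284).

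The summed oligodendrocyte markers of KO + Impact and WT overlapped, as given above. Mog, of the outer myelin surface, was at -0.07 (adjusted p = 0.809) and the lineage factor Olig2 at 0.10 (0.496). Between 4 and 9 of the 15 were called as fallen when single libraries were left out. The count was lowest, 4, without replicate 1 of WT, and was 5 without any KO + Impact library or replicate 3 of WT. It was 0 without the replicate term. Bcas1, a gene of newly forming oligodendrocytes that was not on the list, held 21.3, 24.4, 31.0 and 44.5 CPM in KO + Impact, 18.9, 27.7, 28.4 and 41.4 CPM in KO and 37.0, 43.1, 42.7 and 70.9 CPM in WT (-0.68, SE 0.07, adjusted p = 4.48e-07). Replicate 4 was highest in each group, and the groups overlapped. Qk, an RNA-binding protein of glia and the myelin lineage, averaged 359 ± 33.8 CPM in KO + Impact, 348 ± 30.7 CPM in KO and 425 ± 39.3 CPM in WT (-0.24, SE 0.03, adjusted p = 3.06e-06).

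Nid1, a basement membrane glycoprotein, held 96.4, 102, 106 and 107 CPM in KO + Impact, 107, 129, 115 and 133 CPM in KO and 141, 163, 157 and 186 CPM in WT. KO + Impact lay below WT without overlap (-0.64, SE 0.04, adjusted p = 2.84e-10). It was also below KO (-0.23, SE 0.04, adjusted p = 0.0148), although not without replicate 2 or 4 of either group (0.0670 to 0.151). Pdgfrb, the receptor that marks pericytes, averaged 2.69 ± 0.298 CPM in KO + Impact, 3.51 ± 0.152 CPM in KO and 5.67 ± 0.228 CPM in WT (-1.07, SE 0.14, adjusted p = 3.22e-05). Col1a2, a collagen of fibroblasts, was at 0.589 ± 0.250 CPM in KO + Impact, 0.698 ± 0.385 CPM in KO and 2.24 ± 0.803 CPM in WT (-1.94, SE 0.31, adjusted p = 0.000519). Of 7 tested endothelial and pericyte markers, 1 rose and 1, Pdgfrb, fell (median 0.24), beside 1.42% and 1.97% of all genes. The rise was Rgs5, at 1.02 ± 0.309 CPM in KO + Impact, 1.40 ± 0.599 CPM in KO and 0.383 ± 0.186 CPM in WT (1.46, SE 0.40, adjusted p = 0.0395), and its call ended without replicate 1 or 3 of KO + Impact or any WT library (up to 0.193). Of 13 tested fibroblast and smooth muscle markers, 2 rose (Vim and Col6a1) and 2 fell (Col1a2 and Pdgfra), beside 1.42% and 1.97% of all genes. Their median was -0.08. The 15 listed markers, 4 of them under 1 CPM on average, summed to 655 ± 41.8 CPM in KO + Impact and 610 ± 17.7 CPM in WT. Pdgfra, which oligodendrocyte precursors also express, lost its call (-0.17, adjusted p = 0.0321) without replicate 2, 3 or 4 of KO + Impact or 1 or 3 of WT (up to 0.232). Over the 12 endothelial and pericyte markers the summed level was 9.85 to 10.97 CPM in KO + Impact and 11.9 to 13.9 CPM in WT. The sum includes Pdgfrb, and 9 of the 12 averaged under 1 CPM. Of the 7 tested markers, 5 had estimates above 0 and 2 below. The part of such cells in the result was not tested.

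Several other genes with large declines at 5 CPM or more were low to a like degree in KO. Bmpr1b, a BMP receptor, averaged 11.2 ± 0.762 CPM in KO + Impact, 11.2 ± 1.55 CPM in KO and 19.7 ± 2.56 CPM in WT (-0.81, SE 0.09, adjusted p = 4.08e-06; KO + Impact over KO 0.01, 95% interval -0.18 to 0.19). Rdh5, a retinol dehydrogenase, averaged 11.8 ± 0.841 CPM in KO + Impact, 11.1 ± 1.80 CPM in KO and 20.8 ± 1.38 CPM in WT (-0.81, SE 0.09, adjusted p = 3.63e-06). Mthfd2l, a mitochondrial folate enzyme, averaged 8.93 ± 1.03 CPM in KO + Impact, 9.46 ± 1.06 CPM in KO and 15.1 ± 0.738 CPM in WT (-0.76, SE 0.10, adjusted p = 3.05e-05). Agt, the angiotensin precursor made by astrocytes, averaged 14.8 ± 4.30 CPM in KO + Impact, 15.3 ± 3.63 CPM in KO and 23.1 ± 4.83 CPM in WT (-0.65, SE 0.08, adjusted p = 1.02e-05). The remaining large declines called whichever library was left out were Arhgef33 (-1.22), Gm514 (-1.15), Scube2 (-0.81), Tst (-0.70) and Rassf4 (-0.66).

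Of the large rises, Tagln2, an actin-associated protein, averaged 12.8 ± 1.63 CPM in KO + Impact, 10.2 ± 0.970 CPM in KO and 8.15 ± 0.685 CPM in WT (0.64, SE 0.09, adjusted p = 0.000138). H19, an imprinted noncoding RNA, averaged 9.75 ± 1.72 CPM in KO + Impact, 9.39 ± 2.38 CPM in KO and 6.17 ± 2.06 CPM in WT (0.69, SE 0.13, adjusted p = 0.00278). Pdlim4, Cubn, Col6a1, Lgals3bp, Thbs2 and Fdx1 were also among the 12 largest rises, but their calls depended on single libraries. Pdlim4 lost its call without replicate 2 of either group (highest adjusted p 0.0796), Cubn without replicate 3 of WT (0.0586) and Col6a1 without replicate 1 of WT (0.0730). Lgals3bp lost it without replicate 1, 3 or 4 of KO + Impact or 1, 2 or 4 of WT (up to 0.121), Thbs2 without replicate 2, 3 or 4 of KO + Impact or 1 or 3 of WT (up to 0.101), and Fdx1 without replicate 1, 3 or 4 of KO + Impact or 1 or 3 of WT (up to 0.167).

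Of 52 synaptic vesicle and release genes, 9 rose and 1 fell in KO + Impact, beside 1.42% and 1.97% of all genes, with a list median of 0.04, and 9 rose in KO against WT (3.05% of all genes; between 5 and 11 without single libraries and 2 without the replicate term). The gene that fell, Vamp1 (-0.23, adjusted p = 0.0217), lost its call without replicate 3 or 4 of KO + Impact or 1, 3 or 4 of WT (up to 0.133). Of the 9, only Syt4 and Syt5, of the synaptotagmin family of calcium-binding membrane proteins, were called whichever library was left out. Syt4 averaged 221 ± 9.40 CPM in KO + Impact, 231 ± 9.01 CPM in KO and 194 ± 10.01 CPM in WT (0.19, SE 0.03, adjusted p = 0.000521). Syt5 averaged 129 ± 7.30 CPM in KO + Impact, 133 ± 10.1 CPM in KO and 111 ± 5.24 CPM in WT (0.22, SE 0.04, adjusted p = 0.000494). Left-out libraries brought the count of 9 down to between 2 and 6, with 2 without replicate 3 of KO + Impact, 3 without its replicate 4 or replicate 3 of WT, 4 without replicate 1 or 4 of WT, 5 without replicate 1 of KO + Impact or replicate 2 of WT, and 6 without replicate 2 of KO + Impact. Without the replicate term the count was 0. The summed neuron markers were also higher in KO + Impact on average (5472 ± 117 CPM, beside 5183 ± 246 CPM in WT), and their part in these rises was not tested.

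Of 51 voltage-gated channels 3 rose and 2 fell, beside 1.42% and 1.97% of all genes. The falls, of Scn3a (-0.12, adjusted p = 0.0495) and Cacnb4 (-0.21, adjusted p = 0.00965), were both lost without replicate 1 of WT, and that of Scn3a also without replicate 1, 2 or 3 of KO + Impact or 2 or 3 of WT (up to 0.225). The 3 that rose were Cacna1b, of the N-type calcium channel (323 ± 9.93 CPM in KO + Impact, 322 ± 10.8 CPM in KO and 290 ± 3.35 CPM in WT; 0.16, adjusted p = 0.00289), Cacna1h, of a T-type calcium channel (0.23, adjusted p = 0.000426) and Scn3b, a sodium channel beta subunit (0.21, adjusted p = 0.000294). Of 36 peptide and peptide-processing genes, 5 rose (1.42% of all genes did), of which the convertases Pcsk1 (0.29, SE 0.06, adjusted p = 0.00421) and Pcsk2 (0.18, SE 0.03, adjusted p = 0.00242) were called whichever library was left out. In KO against WT 13 of these 36 rose (3.05% of all genes), between 10 and 14 without single libraries and 0 without the replicate term. The count of 5 was 2 without replicate 1 of WT, 3 without replicate 2 or 3 of either group and 7 without replicate 4 of either group. It was 0 without the replicate term. The peptide genes Npy (0.27, adjusted p = 0.127) and Sst (0.22, adjusted p = 0.150) did not pass.

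The genes of the GABA-synthesizing enzymes, Gad1 (0.06) and Gad2 (-0.08) missed the threshold, at adjusted p of 0.233 for Gad1 and 0.149 for Gad2. In the list of inhibitory neuron subtypes and lineage factors, 1 of 34 tested genes (Calb2) rose and 1 (Calb1) fell, beside 1.42% and 1.97% of all genes. Calb1 lost its call without replicate 2, 3 or 4 of either group. Calb2, the calcium-binding protein calretinin of some interneurons, averaged 199 ± 23.8 CPM in KO + Impact, 209 ± 25.4 CPM in KO and 174 ± 29.7 CPM in WT (0.20, SE 0.03, adjusted p = 0.000659). Of 49 axon guidance genes 2 rose and 1 fell, beside 1.42% and 1.97% of all genes. The netrin receptor gene Unc5d was called whichever library was left out (0.24, SE 0.04, adjusted p = 0.00233). Robo2 lost its call without replicate 1, 3 or 4 of KO + Impact or 1 or 4 of WT (up to 0.0944), and Ephb1, which fell, without replicate 1, 3 or 4 of KO + Impact or 1 or 3 of WT (up to 0.215). Of 15 dopaminergic genes edgeR called 0, beside 3.39% of all genes, and DESeq2 called 0. At an unadjusted p under 0.05, 3 rose and 0 fell. Tyrosine hydroxylase, Th, averaged 33.1 ± 10.1 CPM in KO + Impact, 35.0 ± 8.91 CPM in KO and 29.3 ± 6.02 CPM in WT (0.16, adjusted p = 0.215).

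Of 28 cholesterol synthesis genes 4 rose and 0 fell, beside 1.42% and 1.97% of all genes (median 0.09; 26 of 28 above 0; 11 rose and 0 fell at an unadjusted p under 0.05, and DESeq2 called 4 risen and 0 fallen). Hmgcs1, an early enzyme of the pathway, averaged 1261 ± 66.7 CPM in KO + Impact, 1249 ± 55.1 CPM in KO and 1104 ± 55.2 CPM in WT (0.19, SE 0.03, adjusted p = 3.80e-05). Fdft1, which makes squalene, was at 0.15 (SE 0.03, adjusted p = 0.00526). In KO against WT 6 of the 28 rose (3.05% of all genes), between 3 and 10 without single libraries and 2 without the replicate term, and KO + Impact over KO was 0.01 for Hmgcs1. The count of 4 was 3 without replicate 3 of either group, 6 without replicate 1 of WT and 0 without the replicate term. Of 74 cytosolic ribosomal protein genes 2 fell, beside 1.97% of all genes, and between 0 and 3 did when single libraries were left out.

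In the TRAP libraries, which share no sample with the cultures, 4 of 13009 genes (0.0307%) were called between cKO and cHet, all lower in cKO (966 genes at an unadjusted p under 0.05). They were Nova1, Impact, Ahi1 and Dzip1. Ahi1, a gene of the primary cilium, held 761, 747, 719.6 and 719.6 CPM in KO + Impact, 761, 773, 712 and 708 CPM in KO and 881, 936, 822 and 825 CPM in WT. All libraries of both Cre groups were below all WT libraries (KO + Impact over WT -0.23, SE 0.03, adjusted p = 5.84e-06; KO + Impact over KO 0.00, 95% interval -0.05 to 0.05). In TRAP Ahi1 averaged 321 ± 26.3 CPM in cKO and 415 ± 10.6 CPM in cHet (-0.37, SE 0.05, adjusted p = 0.00321). Dzip1, also of the ciliary base, averaged 342 ± 18.9 CPM in KO + Impact, 336 ± 23.5 CPM in KO and 385 ± 15.9 CPM in WT (-0.17, SE 0.03, adjusted p = 0.000519). In TRAP it averaged 189 ± 10.5 CPM in cKO and 250 ± 8.73 CPM in cHet (-0.41, SE 0.05, adjusted p = 0.000193). Nova1 fell by 3.03 log2 units in TRAP. Impact was lower in cKO, at 17.5 ± 1.54 CPM, than in cHet, at 32.3 ± 4.26 CPM, opposite in direction to KO + Impact over WT, where the virus supplied it.

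In TRAP edgeR called 0 of 29 tested ATF4 targets, beside 0.0307% of all genes. At an unadjusted p under 0.05 there were 2 of the 29, beside 966 of all 13009 genes. Both counts lie near the share over all genes, so they do not show whether these targets changed. Nova2 averaged 404 ± 37.6 CPM in cKO and 344 ± 23.0 CPM in cHet (0.23, SE 0.06, adjusted p = 0.487). Slc7a11 was sparse in TRAP, at 4.17 ± 1.04 CPM in cKO and 4.26 ± 1.24 CPM in cHet. Gfap was at 9.54 ± 2.37 CPM in cKO and 7.97 ± 0.558 CPM in cHet (0.26, SE 0.14, adjusted p = 0.694). The TRAP mice received no Impact virus. The TRAP libraries held 7.38 to 25.4 megatags, of which 13.8 to 25.6% came from Rn45s. Their calls are thus set beside those of the cultures at unlike depth. The references also differ, being mice labelled cHet in TRAP and WT cultures in the primary neurons.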

How the data were processed

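RNA-seq of 12 primary neuron libraries and 12 P0 TRAP libraries was used; RNA was polyA-selected for TruSeq libraries, per the labels' protocols. The authors' deposited tables list 23038 genes with a tag number and an RPKM value. Between 9.45% and 18.8% of genes had a fractional deposited tag number, so tag numbers were taken as estimated counts and rounded to whole numbers. The deposited RPKM values served only for levels per length. The submitters' processing notes name mm10 and edgeR. No aligner or counter is named, so genes with near-identical copies or overlapping neighbours are uncertain.

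filterByExpr (at least 10 tags, total at least 15) chose the genes, TMM scaled the libraries, and the 12 primary libraries were fitted together with group and replicate number (edgeR 4.0.16 in R 4.3.3, quasi-likelihood F test; 6 residual degrees of freedom), so that 1 estimate of the spread serves the 3 groups. TRAP was fitted with genotype alone. The threshold was an adjusted p of 0.05. SE is the log2 fold change divided by the square root of F, and 95% intervals are 1.96 SE. SDs are over libraries (n = 4, TRAP n = 6). The labels do not say whether replicates were separate cultures, so p-values measure the spread between these samples, which may be technical. Same-numbered libraries of different groups deviated together from their group means (correlations 0.156 to 0.349 in all 12 pairs, and -0.300 to 0.0886 in 36 pairs of unlike number), so the numbers were taken to pair the samples. No pair of libraries within a primary neuron group agreed within sampling noise. The scripts were tested on simulated data.

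The members and 31 gene lists were chosen with earlier results of these data known. Named were Nova1, Nova2 and Impact, the 12 largest changes in each direction (5 CPM or more, same sign in 4 pairs), the 4 smallest p of each list, the largest changes called against both WT and KO, and those called in TRAP; other genes named were chosen after their values were seen. Alternatives were DESeq2 1.42.0, its size factors, other filters, no Rn45s, no replicate term, only 8 libraries in the fit, and left-out libraries or replicate numbers. Positions are RefSeq's on GRCm38.p6. Some genes are not reported here.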

Additional observations from a re-analysis of the deposited data

Results flagged for a closer look

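Of 290 groups of 4 libraries (145 genes, in KO + Impact and in WT), 12 had 1 library far from the other 3, by Dixon's 95% critical value. Chance gives such a gap in about 1 of 20 groups.

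In KO + Impact, replicate 4 stood apart in 5 genes. Gja1 was at 72.8 CPM there and at 59.2 to 60.7 CPM in the others, and Slc4a4 was at 330 CPM, beside 286 to 293 CPM. Cubn was at 5.03 CPM, beside 6.60 to 6.91 CPM, Rgs5 at 0.559 CPM, beside 1.15 to 1.22 CPM, and Alas2 at 0.280 CPM, beside 0.645 to 0.678 CPM. Ednrb in replicate 2 was at 207 CPM, beside 228 to 231 CPM, and Tagln2 in replicate 3 at 10.33 CPM, beside 13.3 to 13.7 CPM. Edem1 in replicate 1 was at 15.8 CPM, beside 17.9 to 18.3 CPM.

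In WT, Elavl2 in replicate 3 was at 84.4 CPM, beside 76.8 to 77.3 CPM, and Calb1 in replicate 2 at 97.6 CPM, beside 83.5 to 84.6 CPM. Th in replicate 1 was at 20.3 CPM, beside 30.9 to 33.2 CPM, and Pecam1 in replicate 1 at 1.55 CPM, beside 0.930 to 1.01 CPM.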

How the results depend on the processing

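Nova1 and Impact kept their direction and their call against WT in every alternative. The 503 calls of KO + Impact against WT became 56 without the replicate block and 297 with only the 8 libraries of both groups in the fit, and ran from 244 to 461 without single libraries and from 206 to 464 without single replicate numbers. The 27 calls against KO became 1 without the replicate block, 42 with DESeq2 and 55 with no filter on low counts, and ran from 11 to 38 without single libraries and from 10 to 22 without single replicate numbers, with 15 without replicate 3 of KO + Impact and 16, 16, 12 and 11 without replicates 1 to 4 of KO (leaving out KO libraries was chosen after seeing the data). The 942 calls of KO against WT became 107 without the replicate block, and ran from 507 to 1042 without single libraries and from 490 to 683 without single replicate numbers, with 508, 507, 554 and 580 without replicates 1 to 4 of KO and 614 without replicate 1 of WT. The 4 TRAP calls became 13 with DESeq2 and stayed 4 with a replicate block. The log2 fold change of Cd68 (-0.16) changed sign without replicate 2 of KO + Impact (1.9e-05) or replicate 3 of WT (0.0503), and that of Pecam1 (0.24) without replicate 2 of KO + Impact (-0.0314). Over left-out libraries and numbers they ran from -0.429 to 0.0503 for Cd68 and from -0.0314 to 0.507 for Pecam1, and neither was called. The causes were not tested, but fewer samples enter the fits without libraries. At these depths a gene near 1 CPM has few tags, which limits what shifts can be detected there.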

Other observations

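In KO + Impact against WT, 54 genes were called under every alternative tried. The 6 described first are among them, stand on none of the gene lists and were picked out after their values were seen. Mapt, the microtubule protein tau, averaged 1554 ± 117 CPM in KO + Impact, 1617 ± 97.2 CPM in KO and 1267 ± 100.09 CPM in WT (log2 fold change of KO + Impact over WT 0.30, SE 0.02, adjusted p = 4.49e-08). Peg10, an imprinted gene derived from a retrotransposon, averaged 362 ± 29.7 CPM in KO + Impact, 371 ± 23.4 CPM in KO and 282 ± 25.3 CPM in WT (0.36, SE 0.03, adjusted p = 9.20e-08). Both were higher in KO + Impact in 4 of 4 pairs.

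Among those that fell were 3 genes that astrocytes secrete. Apoe, the lipid carrier, averaged 1157 ± 95.1 CPM in KO + Impact, 1112 ± 82.8 CPM in KO and 1459 ± 125 CPM in WT (-0.33, SE 0.03, adjusted p = 1.08e-06). Clu, an extracellular chaperone, averaged 115 ± 6.71 CPM in KO + Impact, 114 ± 4.86 CPM in KO and 140 ± 4.94 CPM in WT (-0.28, SE 0.04, adjusted p = 4.45e-05). Bcan, a proteoglycan of the extracellular matrix, averaged 202 ± 7.17 CPM in KO + Impact, 192 ± 14.5 CPM in KO and 258 ± 23.6 CPM in WT (-0.35, SE 0.04, adjusted p = 1.32e-06). Lrp2, an endocytic receptor, averaged 24.4 ± 3.45 CPM in KO + Impact, 21.6 ± 2.33 CPM in KO and 33.7 ± 1.19 CPM in WT (-0.47, SE 0.07, adjusted p = 0.000191). KO + Impact and WT did not overlap in any of these 6 genes. The groups did not overlap in 255 of the 503 called genes either, nor in 4.73% of all genes tested. Because the 6 were picked among genes called in every alternative, their lack of overlap adds no evidence.

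Mfge8 and Abca1, of phagocytosis and cholesterol export, were lower in KO + Impact than in WT and higher than in KO. Mfge8 averaged 96.4 ± 7.97 CPM in KO + Impact, 79.6 ± 10.31 CPM in KO and 115 ± 14.5 CPM in WT, and Abca1 averaged 212 ± 15.4 CPM in KO + Impact, 187 ± 10.5 CPM in KO and 239 ± 4.96 CPM in WT. Their calls against KO (adjusted p = 0.0148 and 0.0300) ended without replicate 2 or 3 of KO + Impact or 1, 2 or 3 of KO for Mfge8 (up to 0.133) and without replicate 1, 3 or 4 of KO + Impact or any KO library for Abca1 (up to 0.273).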
